A study of Mus musculus with 12 samples.

Results

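The genes that encode the proteins of the cytosolic ribosome were followed gene by gene in differentiating mouse keratinocyte cultures in which *Sbsn* (suprabasin, a secreted protein of the upper epidermis) was targeted with short interfering RNA (siRNA). A counted locus was taken as a member when its name, or 1 of the names joined in it, was that of a protein of the small subunit (*Rps* and a number, *Rpsa* or *Fau*) or of the large subunit (*Rpl* and a number, *Rplp0*, *Rplp1* or *Rplp2*). Names of kinases and binding proteins that only start alike were left out, as were loci whose names are joined by a comma. This gave 89 of the 21947 counted loci, with 34 loci of the small subunit and 55 of the large subunit, on 20 chromosomes. They carry 86 different ribosomal protein names, because *Rpl29* was counted at 3 loci and *Rpl31* at 2.

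All cultures were primary keratinocytes of neonatal BALB/c mice, brought to 0.12 mM calcium, which induces differentiation. The siControl and siSbsn cultures were harvested 48 hours after transfection, and no such time is given for the no siRNA cultures. The siSbsn cultures received 75 pmol of an siRNA pool against *Sbsn*, the siControl cultures the same amount of a pool without a target, and the no siRNA cultures neither. Batch 1 held 2 libraries each of no siRNA, siControl and siSbsn, and batch 2 held 3 of siControl and 3 of siSbsn. Nothing in the labels shows that libraries of a group came from separate cultures or animals, so p-values measure the spread between these libraries, which may be technical.

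A ribosome reads messenger RNA on its small (40S) subunit and joins amino acids on its large (60S) subunit. Most ribosomal proteins are needed in equal numbers, and their genes are among the most expressed of growing cells. Their messenger RNAs mostly begin with a tract of pyrimidines (C and T), through which the TOR kinase pathway controls their translation. The genes have left many processed pseudogenes in mammalian genomes, near-copies of the messenger RNA that lie elsewhere. Keratinocytes leaving the basal layer slow their growth while they build the cornified layer.

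Only reads that aligned to a single place were counted, so a read from a stretch that a pseudogene also holds was dropped. The percent of 50-base windows of a gene's coding transcript that also occur in a transcript of another annotated gene, pseudogenes included, was taken as a measure of this, and it is called the copied share here. Of the 89 loci, 76 carry a single name and 13 are joined with a neighbouring or nested gene, such as the small nucleolar RNA genes *Snord33* and *Snord34* inside *Rpl13a*. In a joined locus the reads of both genes count together. One of the *Rpl31* loci is joined to *Clpb*, where the annotation used here shows no *Rpl31*, so that locus may count *Clpb* alone. That annotation shows *Rpl29* at the locus on chromosome 9, but not at those on chromosomes 1 and 5. *Rps4l* and *Rpl32l* have no coding transcript in that annotation.

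Total counts ranged from 27934836 to 49553923 per library, and the member loci took between 1.18% and 2.76% of them. Levels are given as CPM, which is the count scaled to a library of 1e6 normalised counts, and differences as log2 values. In batch 2 the siControl libraries held 371, 332 and 459 CPM of *Sbsn* and the siSbsn libraries 124, 125 and 121 CPM, so the groups were apart. In batch 1 the siControl libraries held 1189 and 1356 CPM, the siSbsn libraries 1965 and 697 CPM. The library labelled siSbsn batch 1 replicate 1 thus held more *Sbsn* than any other library, against its label. The 11 keratinocyte markers, among them *Krt5*, *Krt14* and *Ivl*, were detected in all 12 libraries, with a summed level of 47690 to 116300 CPM that was highest in siControl batch 1 replicate 1. Summed levels were 384 to 1205 CPM for 7 fibroblast markers, 685 to 1011 CPM for 5 melanocyte markers, 5.61 to 13.9 CPM for 6 immune markers, of which *Cd207* was at 0 in every library, and 1.23 to 3.21 CPM for 4 endothelial markers. In bulk cultures, fewer cells of a type and less RNA per cell cannot be told apart.

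The counted level spread widely among the members. Per kilobase of the longest transcript, the highest mean levels over the 12 libraries were those of *Rplp1* (1619 CPM per kb), a protein of the acidic stalk that recruits elongation factors, and *Rpl4* (1489), a large-subunit protein that lines the exit tunnel. *Rpl8* (875) and *Rpl41* (840) were among the next. The 5 loci with the highest counts held 45.5% of all member counts, and the 10 highest held 64.3%. At the lower end, the locus of *Rpl29* on chromosome 5 (chr5:115801555-115802194, mm10) had no count in any library, *Rpl10l* and *Rpl3l* stood at 0.036 and 0.043 CPM per kb, the *Rpl29* locus on chromosome 1 at 0.24 and *Rps13* at 0.52. *Rps13*, *Rps23*, *Rpl38* and *Rps29*, which each encode a core subunit protein, all had a mean level under 2 CPM. In total 7 members averaged under 1 CPM, 37 under 10 CPM and 30 over 100 CPM.

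The level went with the copied share. Loci with under 10% of windows copied had a median of 61.1 CPM per kb (7 loci), those with 10% to under 50% a median of 120 (28 loci), those with 50% to under 90% a median of 7.05 (48 loci), and those with 90% or more a median of 5.39 (4 loci). Across 83 members the correlation of log2 level per kilobase with copied share was -0.54, by Pearson and by Spearman, which is a description across genes that share the same libraries. The share of this spread that dropped reads account for was not tested. A low level of a member with many copies is therefore a level of uniquely aligned reads only.

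**Figure D1:**
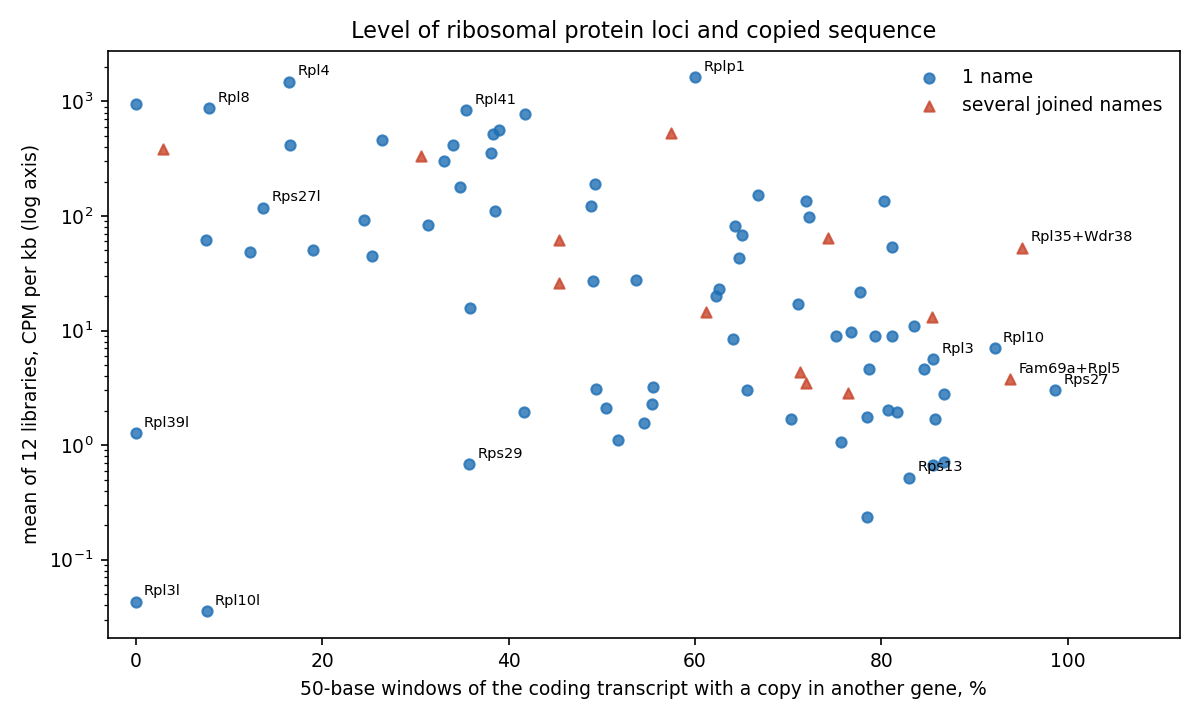
Mean level over 12 libraries of each member locus, in CPM per kilobase of the longest transcript on a log axis, against the percent of 50-base windows of its coding transcript that occur in another gene. The 86 loci drawn are circles (1 name) or triangles (joined names), and loci with 50% or more of their windows copied lie mostly below those with fewer.

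Of the 89 loci, 85 passed the filter on low counts for the comparison over both batches. The 4 that did not are *Rpl10l*, *Rpl3l* and the *Rpl29* loci on chromosomes 1 and 5. For each of the 85 members, the level in a library was set against the member's own mean over all 12 (log2 of CPM plus 0.5). The members moved together by library. In siControl batch 1 replicate 1 the median member was 0.94 above its mean, which is 1.92-fold, and all 85 members were above. It was the highest of the 12 libraries for 78 of the 85 members. No other library came close. The next shifts were 0.18 in siControl batch 1 replicate 2, 0.15 in siControl batch 2 replicate 3 and 0.14 in the library labelled siSbsn batch 1 replicate 1. At the lower end stood the 3 siSbsn libraries of batch 2, with -0.27, -0.29 and -0.29, beside -0.26 for siControl batch 2 replicate 2 and -0.17 for replicate 1. The no siRNA libraries were at 0.06 and -0.15 and siSbsn batch 1 replicate 2 at -0.11. The medians over the other loci stayed between -0.014 and 0.016.

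The libraries of a condition therefore differed among themselves. The SD of the member shift was 0.54 between the 2 siControl libraries of batch 1 and 0.22 between the 3 of batch 2. It was 0.18 for siSbsn in batch 1 and 0.15 for no siRNA, and only 0.00929 between the 3 siSbsn libraries of batch 2. Gene by gene, siControl batch 1 replicate 1 was above replicate 2 for 83 of 85 members, with a median difference of 0.82 and a range from -0.25 to 1.35. Among the other 12772 loci 49.2% were above 0, with a median of -0.01. In batch 2, siControl replicate 3 was above the mean of replicates 1 and 2 for 84 of 85 members (median 0.35), where 54.7% of the other loci were above 0.

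**Figure D2:**
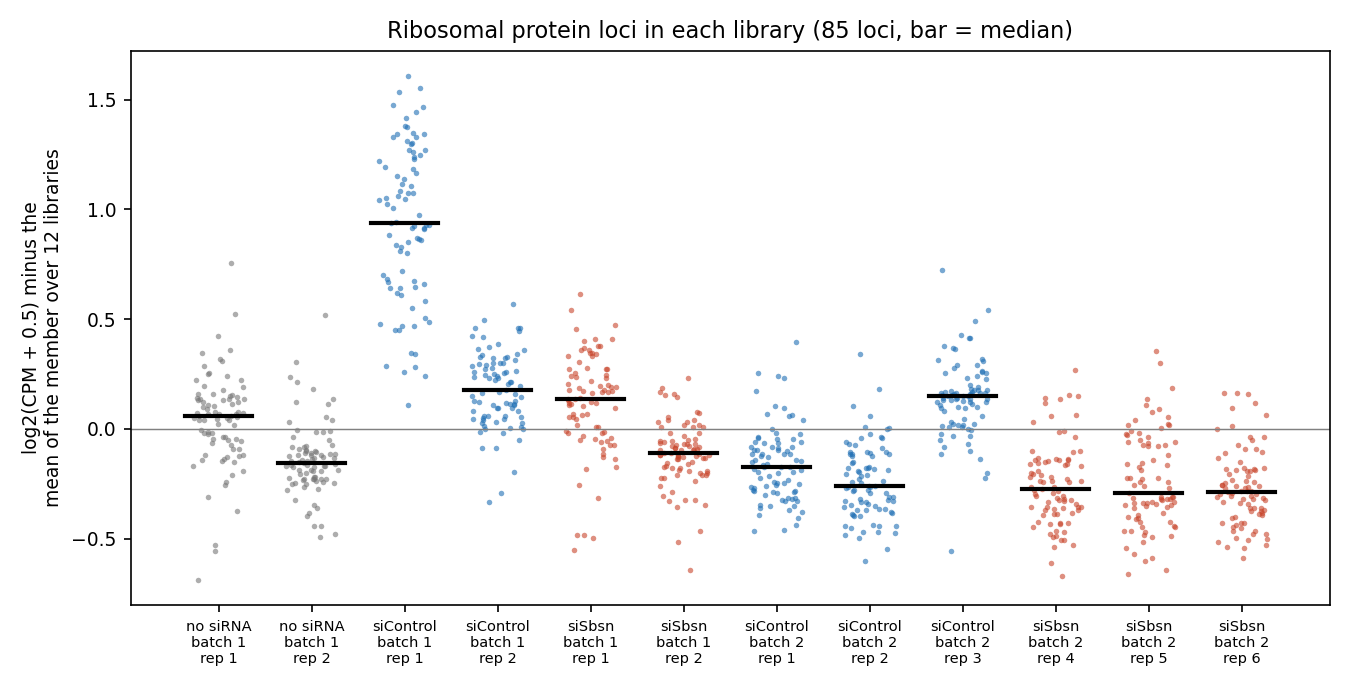
Difference of each of 85 members from its own 12-library mean, in log2 units, for each library. Points are members, coloured by treatment, and black bars are their medians. Every member is above 0 in siControl batch 1 replicate 1, and the 3 siSbsn libraries of batch 2 are nearly alike.

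The first question was whether ribosomal protein genes differ between siSbsn and siControl cultures over both batches. Nearly all of them were lower in siSbsn, each by a small amount, and none reached the threshold. Of 85 members, 84 had a log2-fold change below 0, where 49.3% of all 12857 loci tested were below 0. The median was -0.38, against 0.01 over all loci, and the quartiles of the members were -0.45 and -0.28. The largest value in size was that of *Rpl36*, and *Fam69a+Rpl5* was the lone locus above 0.

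A member was called when its log2-fold change was over 0.5 in size and its edgeR q-value under 0.05. No member was called (0% of all loci were called lower), and the smallest q of a member was 0.254. At an unadjusted p under 0.05, 34 of 85 members were lower and 0 higher, where 9.49% of all loci were lower. DESeq2 called 0 members too, where it called 0.327% of all loci lower, and its smallest q of a member was 0.0594. Without siControl batch 1 replicate 1 the median was -0.20, 77 members were below 0, and 25 were lower at an unadjusted p under 0.05 (8.3% of all loci). Leaving out the siSbsn library of batch 1 with the high *Sbsn* level gave a median of -0.35 with 84 members below 0.

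*Rps19* encodes a small-subunit protein needed to mature 18S ribosomal RNA, and it is the gene most often mutated in Diamond-Blackfan anaemia. It was counted at chr7:24884635-24889802 (mm10). In batch 1 its level was 330.2 and 139 CPM in siControl and 119 and 98.4 CPM in siSbsn, beside 116 and 90.9 CPM with no siRNA. In batch 2 it was 105, 82.4 and 118 CPM in siControl and 77.4, 71.6 and 78.2 CPM in siSbsn. The groups did not overlap in either batch, although the nearest siControl and siSbsn libraries of batch 2 were close. The log2-fold change was -0.69 (SE 0.23, edgeR q = 0.254), and -0.40 without siControl batch 1 replicate 1.

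*Rpl36*, a large-subunit protein gene on chromosome 17, had the lowest value of all. Its level was 7.67 and 3.29 CPM in siControl and 2.03 and 1.88 CPM in siSbsn of batch 1, with 1.80 and 2.23 CPM in no siRNA. In batch 2 it was 3.89, 4.21 and 4.44 CPM in siControl and 3.54, 3.42 and 3.12 CPM in siSbsn. Both batches showed the same order of groups, and the 7.67 CPM library was far above the other siControl library of its batch. The log2-fold change was -0.76 (SE 0.27, edgeR q = 0.254), and -0.44 without that library.

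Other members at the low end were of both subunits. *Rpl35a*, another gene mutated in Diamond-Blackfan anaemia, was at -0.72 (SE 0.27), *Rps27* at -0.61 (SE 0.20) and *Rplp2* at -0.60 (SE 0.23), with edgeR q-values of 0.254 to 0.255. The level of *Rplp2* was 173 and 79.8 CPM in siControl and 74.8 and 51.3 CPM in siSbsn of batch 1, and 52.6, 42.7 and 68.3 CPM against 47.5, 41.4 and 39.3 CPM in batch 2. Its groups were apart in batch 1 and overlapped in batch 2.

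At the upper end the values lay near 0. *Fam69a+Rpl5*, a joined locus that holds *Rpl5*, was at 0.02 (SE 0.15), and *Rpl24* at -0.04 (SE 0.18). *Rps23* was at -0.07 (SE 0.27), *Clpb+Rpl31* at -0.10 (SE 0.11), *Rpl32l* at -0.12 (SE 0.34) and *Rpl39l* at -0.15 (SE 0.22). Of these 6 loci, 3 were joined with another gene or had no coding transcript in the annotation. *Rpl24*, *Rps23*, *Rpl32l* and *Rpl39l* had levels under 3 CPM in every library.

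**Figure D3:**
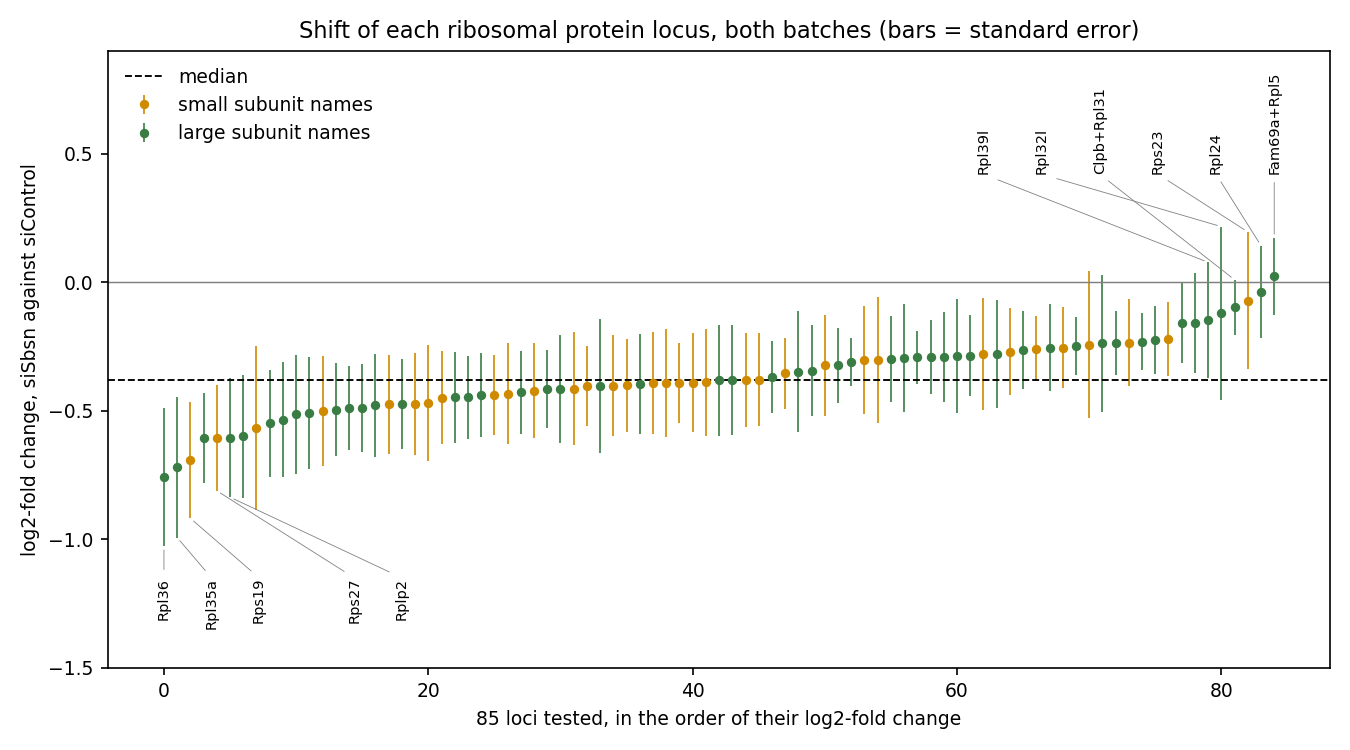
Log2-fold change of siSbsn against siControl over both batches for each of 85 members, ordered by value, with bars of 1 standard error from edgeR and colours for the subunits. The values run from -0.76 (Rpl36) to 0.02 (Fam69a+Rpl5), and 84 lie below 0.

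By role, the 34 small-subunit loci had a median of -0.39, all below 0, and 12 of them were lower at an unadjusted p under 0.05. The 51 large-subunit loci had a median of -0.35, with 50 below 0 and 22 at that level. Of all loci tested, 49.3% were below 0 and 9.49% were lower at that level. The stalk proteins *Rplp0*, *Rplp1* and *Rplp2*, which form the arm where elongation factors bind, were at -0.30, -0.51 and -0.60. *Rplp1* was at 2065 and 952 CPM in siControl and 964 and 688 CPM in siSbsn of batch 1, so the groups overlapped, and at 582, 546 and 815 CPM against 522, 544 and 533 CPM in batch 2.

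Members with further roles lay within the range of the others. *Rps6*, the small-subunit protein that S6 kinase phosphorylates, was at -0.39 (SE 0.16). *Rpsa*, which also serves as a laminin receptor, was at -0.30 (SE 0.25). *Rps27a*, made as a fusion with ubiquitin and counted with *Clhc1*, was at -0.42 (SE 0.19), and *Fau*, whose product carries a ubiquitin-like part in front of the small-subunit protein S30, at -0.39 (SE 0.19). *Rpl11*, which with *Rpl5* and 5S ribosomal RNA forms a particle that binds the p53 regulator Mdm2, was at -0.16 (SE 0.19) and turned to 0.11 in batch 2 alone. No edgeR q-value of these was under 0.05.

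Over both batches the median was alike in loci with a single name and in loci with few copies. The 72 tested loci with a single name had a median of -0.39, with 72 of 72 below 0. The 33 loci with under 50% of windows copied had a median of -0.39 (33 below 0), and the 50 with 50% or more copied a median of -0.38 (49 below 0). Within the batches the relation to copied share differed in sign. Across 83 members the Pearson correlation of log2-fold change with copied share was 0.26 in batch 1 and -0.25 in batch 2. It was 0.04 over both batches and -0.36 for the interaction of batch and treatment. These values describe genes that share the same libraries. In both batches the groups did not overlap and siSbsn was lower for 14 of 85 members, where 4.22% of all loci met this. Among them were *Rpl3*, *Rpl6*, *Rpl13a* with its small nucleolar RNA genes, *Rpl22l1*, *Rpl34*, *Rpl36*, *Rpl41*, *Rpl7l1*, *Rps3* with *Snord15b*, *Rps15*, *Rps18*, *Rps19* and *Rps24*.

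Taken batch by batch, the members' values were lower in batch 1 and depended there on 1 library. In batch 1 the median of 86 members was -0.72 and 85 were below 0, where 50.2% of all loci were. The siControl and siSbsn libraries did not overlap, with siSbsn lower, for 51 members, where this held for 25.9% of all loci. No member was called by edgeR (0% of all loci) or by DESeq2 (0.217% of all loci lower, 0.992% higher). At an unadjusted p under 0.05, 12 members were lower (4.79% of all loci). When siControl batch 1 replicate 1 was left out, the median was -0.20 with 71 of 86 below 0. It was -1.12 when replicate 2 of siControl was left out instead.

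In batch 2, which that library does not touch, the median was -0.18, with 74 of 85 members below 0, where 51.8% of all loci were. Groups did not overlap, with siSbsn lower, for 24 members (9.15% of all loci). *Rpl32l* alone had all siSbsn libraries above all siControl libraries, at 1.18, 1.38 and 1.10 CPM against 1.10, 0.807 and 1.03 CPM. At an unadjusted p under 0.05, 23 members were lower (5.69% of all loci), and edgeR and DESeq2 each called 0 members. edgeR called 0.00774% of all loci lower there, which is 1 locus, and DESeq2 called 0.0619% of all loci lower and 0.0155% higher. Without siControl batch 2 replicate 3 the median was -0.05 and 53 of 85 members were below 0.

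The difference between the batches was tested as the interaction of batch and treatment. This test called no member with edgeR (0% of all loci higher) and 0 with DESeq2 (0.397% of all loci higher, 1.27% lower). Its median was 0.48, with 78 of 85 members above 0, where 48% of all loci were, a value above 0 meaning that siSbsn was less low in batch 2. At an unadjusted p under 0.05, 7.41% of all loci were higher and, near that share, 7 members (8.24%). These were *Rpl14*, *Rpl35a*, *Rpl36*, *Rpl7l1*, *Rps27l*, *Rps29* and the *Rps12* locus, which also holds *Snora33* and *Snord100*. The median was 0.005 without siControl batch 1 replicate 1.

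*Rps29*, a zinc-binding small-subunit protein gene, had the largest value in that test, 1.58 (SE 0.45, edgeR q = 0.265). It rests on 7 to 18 counts per library. Levels were 0.648 and 0.515 CPM in siControl and 0.216 and 0.193 CPM in siSbsn of batch 1, and 0.287, 0.227 and 0.290 CPM against 0.233, 0.311 and 0.314 CPM in batch 2. The groups were apart in batch 1 and overlapped in batch 2. *Rps13* went the other way. It was at 1.55 and 1.23 CPM against 1.42 and 1.06 CPM in batch 1, and at 1.33, 1.18 and 1.42 CPM against 1.05, 0.967 and 0.681 CPM in batch 2. Its interaction was -0.35 (SE 0.36), outside 3 scaled median absolute deviations of the members.

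Each siRNA group of batch 1 was also set against the no siRNA libraries of that batch. The siControl libraries stood higher for most members, and the siSbsn libraries stood close to no siRNA. For siControl against no siRNA the median of 86 members was 0.80, with 83 above 0, where 50.4% of all loci were. Every siControl library was above every no siRNA library for 63 members, where this held for 27.6% of all loci. At an unadjusted p under 0.05, 34 were higher (5.36% of all loci). Neither edgeR (0% of all loci) nor DESeq2 (0% of all loci higher, 0.131% lower) called a member. The median was 0.26 without siControl batch 1 replicate 1.

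For siSbsn against no siRNA the median of 84 members was 0.07, with 61 above 0, where 49.8% of all loci were. No member was higher at an unadjusted p under 0.05 (0.0685% of all loci) and none was called by edgeR (0% of all loci) or DESeq2 (0% of all loci). The sign of this median turned with 1 library. It was -0.04 without no siRNA replicate 2. Leaving out siSbsn replicate 1 of batch 1, whose *Sbsn* level goes against its label, gave -0.05. Both comparisons use the same no siRNA libraries, so their values are given side by side only. *Rpl4* held 2189 and 2034 CPM in no siRNA, then 3670 and 2408 CPM under siControl and 2241 and 2188 CPM under siSbsn, so that siSbsn lay beside no siRNA and siControl above both. *Rplp0* was at 1118 and 932 CPM, 2126 and 1124 CPM, and 1187 and 1026 CPM in the same order.

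Ribosomal protein messenger RNAs are short, and the libraries differed in how counts depended on transcript length. The longest transcript of the 85 members had a median of 1049 bases, against 3476 bases over all loci tested, and 71 members were under 2000 bases. Over the loci that are no members, the slope of the log2 difference from the mean on log2 length was -0.47 in siControl batch 1 replicate 1. It was -0.12 in siControl batch 1 replicate 2, and between -0.061 and 0.136 in the other libraries. In siControl batch 1 replicate 1 the 499 other loci under 1000 bases had a median of 0.89, near the 0.94 of the members. The 2979 other loci of 5000 bases or more had a median of -0.67.

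When each library's length trend was removed, the median of siSbsn against siControl over both batches was -0.16, with 69 of 85 members below 0. It was -0.18 in batch 1 and -0.09 in batch 2. For siControl against no siRNA it was 0.24, and for the interaction 0.13. With the trend fitted on the other loci alone the median over both batches was -0.16 as well, with 70 below 0. In batch 1 the length trend and the siControl label move together, and what sets the trend was not tested.

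**Figure D4:**
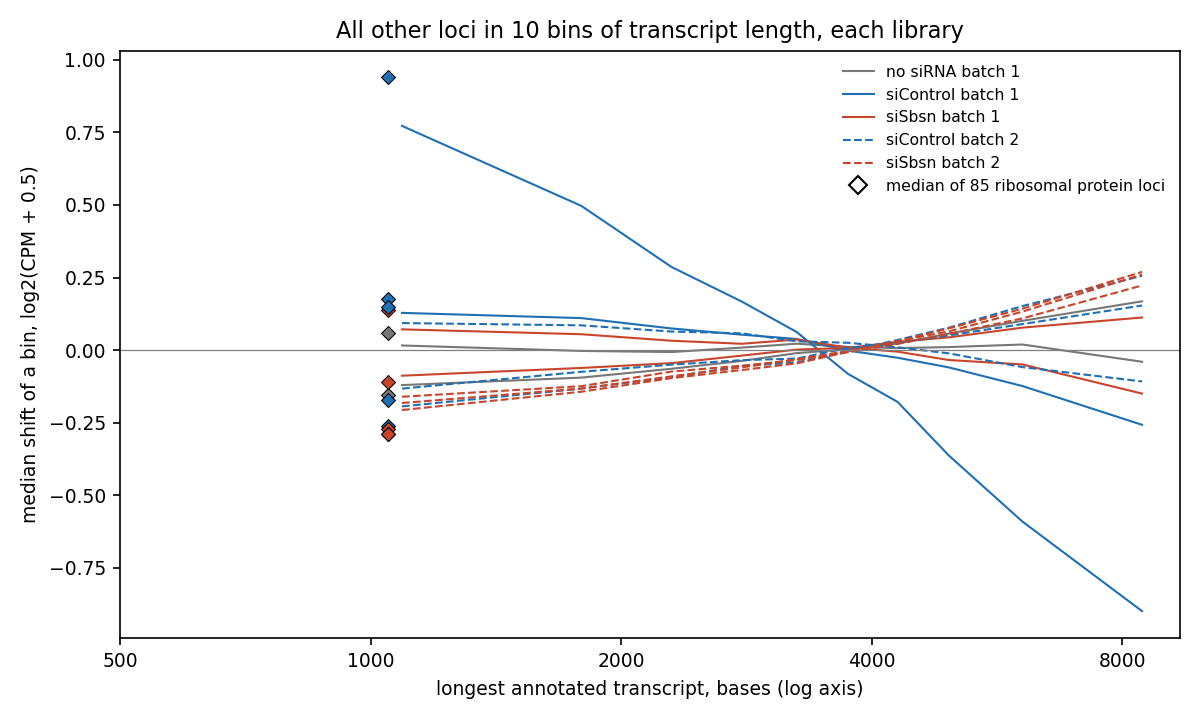
Median log2 difference from the 12-library mean in 10 bins of transcript length (log axis, bases) for the loci that are no members, 1 line for each library coloured by group. Diamonds are the members' median in each library, drawn at their median length. The line of siControl batch 1 replicate 1 falls from 0.77 in the shortest bin to -0.90 in the longest.

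The clearest calls were between the batches. Most members were lower in batch 2, with treatment in the model. Over siControl and siSbsn libraries the median of batch 2 against batch 1 was -0.56, with 80 of 85 members below 0, where 51.6% of all loci were. edgeR called 44 members lower, where it called 21.3% of all loci lower, and 0 higher, where it called 16.4% higher. DESeq2 called 44 lower, where it called 20.8% of all loci lower. All 6 libraries of batch 2 were below all 4 siControl and siSbsn libraries of batch 1 for 15 of 85 members (17.6%). That share was below the 19% of all loci for which this held.

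*Rpl39l* fell most, by 1.24 on the log2 scale (SE 0.22, edgeR q = 0.00119). It was at 1.48 and 1.49 CPM in siControl and 1.60 and 0.892 CPM in siSbsn of batch 1, and between 0.414 and 0.707 CPM in the 6 libraries of batch 2. *Rpl22l1* fell by 1.19 (SE 0.17, edgeR q = 0.000362). It was between 6.37 and 14.3 CPM in the siControl and siSbsn libraries of batch 1 and between 3.17 and 4.51 CPM in batch 2, so these libraries did not overlap for either gene. Both are second copies of a ribosomal protein gene. *Rpl37a* fell by 1.03, *Rps24* by 0.98, *Rpl41*, which encodes the smallest ribosomal protein, by 0.95, and *Rplp1* by 0.94 (edgeR q = 0.00147 to 0.00489).

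The counts of calls depended on 1 library and on transcript length. Without siControl batch 1 replicate 1, the median was -0.32, with 15 members called lower (18.4% of all loci) and 2 called higher (14.1% of all loci), *Rpl24* and *Rpl36*. With each library's length trend removed the median was -0.08. Then 11 members were called lower (16.5% of all loci), among them *Rpl22l1* at -0.83, *Rps24* at -0.96 and *Rpl39l* at -0.66. Another 5 were called higher (18.3% of all loci), which were *Rpl10a* at 0.70, *Rpl24* at 1.01, *Rpl32l* at 0.66, *Rpl36* at 0.84 and *Rpl7l1* at 0.57. The shares of members called then lay near or below those of all loci. Marker levels also moved with batch. In the siControl and siSbsn libraries, the summed keratinocyte markers were at 66270 to 116300 CPM in batch 1 and 47690 to 59280 CPM in batch 2, the melanocyte markers at 685 to 853 CPM and 961 to 1011 CPM, and the immune markers at 9.43 to 13.9 CPM and 5.61 to 7.51 CPM, without overlap. Fibroblast markers were at 435.5 to 1205 CPM and 384 to 448 CPM, and endothelial markers at 1.23 to 2.53 CPM and 2.19 to 3.08 CPM, with overlap. Their part in the result was not tested. What the batches are is not given in the labels, and the parts of the difference between them cannot be told apart.

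A few members departed from the others in the batch comparison, by more than 3 scaled median absolute deviations. *Rpl10a*, a large-subunit protein gene on chromosome 17, held 46.9 and 34.2 CPM in the siControl and 24.3 and 27.2 CPM in the siSbsn libraries of batch 1. In batch 2 it was at 45.1, 34.4 and 50.05 CPM and at 41.2, 34.8 and 37.1 CPM, and its log2-fold change was 0.31 (SE 0.14, edgeR q = 0.0912). *Rpl7l1* was at 152 and 125 CPM, 88.9 and 99.4 CPM, then 146, 141 and 166 CPM, and 139, 137 and 139 CPM, with 0.33 (SE 0.11, edgeR q = 0.0236), under the 0.5 limit of a call. *Rpl24* was at 0.38 (SE 0.19, edgeR q = 0.106) on levels of 0.916 to 1.74 CPM.

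Second copies of 7 ribosomal protein genes were read beside their main copies, as levels of uniquely aligned reads. The copied share differs within pairs, so no order of expression is read from these levels. *Rpl7l1* was at 48.8 CPM per kb and *Rpl7* at 152. *Rpl22l1* was at 3.06 and *Rpl22* at 91.6, and *Rpl39l* at 1.28 and *Rpl39* at 417. *Rps4l* was at 26.4 and *Rps4x* at 98.4. *Rpl3l*, which is known from heart and skeletal muscle, and *Rpl10l*, known from testis, were near 0 at 0.043 and 0.036 CPM per kb, beside 5.63 for *Rpl3* and 7.02 for *Rpl10*. *Rpl10l* had no count in the 6 libraries of batch 1 and 0 to 6 counts in those of batch 2. *Rps27l*, a p53 target, was at 118 CPM per kb and *Rps27* at 3.01, where 13.7% of the windows of *Rps27l* and 98.7% of those of *Rps27* are copied elsewhere.

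Both genes of each tested pair had values below 0 in siSbsn against siControl. Over both batches *Rpl7l1* and *Rpl7* were at -0.29 (SE 0.10) and -0.24 (SE 0.13), *Rpl22l1* and *Rpl22* at -0.47 (SE 0.17) and -0.34 (SE 0.18), and *Rps4l* and *Rps4x* at -0.30 (SE 0.21) and -0.22 (SE 0.14). *Rps27l* and *Rps27* were at -0.39 (SE 0.21) and -0.61 (SE 0.20), and *Rpl39l* and *Rpl39* at -0.15 (SE 0.22) and -0.29 (SE 0.22). The difference within a pair was not tested. Between batches they differed more, with 0.33 for *Rpl7l1* beside -0.22 for *Rpl7*, and -1.19 for *Rpl22l1* beside -0.46 for *Rpl22*.

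Coherence was described by the correlation of each member with the mean of the other members over libraries. Over 12 libraries the median was 0.94, and 74 of 85 members (87.1%) were over 0.7, as were 20.9% of the 12772 other loci. The lowest was *Rpl24*, at -0.030. Without siControl batch 1 replicate 1 the median was 0.85, with 69.4% of members over 0.7 and 14.5% of the other loci. Within the 6 libraries of batch 2 it was 0.85, with 78.8% and 27.5%. The libraries are shared by all members, and transcript length moves with the shift of each library, so these are descriptions of common movement.

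The size of the movement was less alike across members than its sign. The difference between the siControl libraries of batch 1 (replicate 1 minus replicate 2) and that of batch 2 (replicate 3 minus the mean of 1 and 2) share no library. Across members they correlated at 0.25, and at 0.46 for the 52 members over 10 CPM, while across the other loci the value was 0.71. Genes are not independent replicates, and the members span a narrow range in both.

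Departing members differed between comparisons. In batch 1, *Fam69a+Rpl5* at 0.02 was above the members' range, and *Rps29* and *Rpl36* at -1.52 each and the chromosome 1 locus of *Rpl29* at -1.51 were below it. The annotation used here shows no *Rpl29* at that chromosome 1 locus. In siControl against no siRNA, *Rpl24* at -0.10, *Rpl39l* at -0.22 and *Rps13* at -0.03 were below. In siSbsn against no siRNA, *Rpl38* at 0.59, *Rpl36a* at 0.58 and *Rps23* at 0.50 were above and *Rpl39l* at -0.51, *Rpl24* at -0.37, *Rps6* at -0.32 and *Rps18* at -0.29 below. No edgeR q-value of these was under 0.4. Over both batches and in batch 2, no member departed. Of the departing members in these 3 comparisons, those other than *Fam69a+Rpl5*, *Rpl36* and *Rps6* had a level under 5 CPM in each library. *Rpl29* on chromosome 1 had 1 to 13 counts. *Rpl10a* and *Rpl7l1*, which departed between the batches, were higher, at 23.05 to 50.05 CPM and 86.2 to 166 CPM.

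Other genes of protein synthesis and energy were read from lists of the same kind. Of all 12857 loci tested over both batches, 49.3% were below 0. At an unadjusted p under 0.05 in edgeR, 9.49% of all loci were lower and 9.68% higher. The 76 tested loci of the mitochondrial ribosome, which translates the few proteins encoded in mitochondria, had a median of -0.31 over both batches, with 73 below 0 and 30 lower at an unadjusted p under 0.05. *Mrpl52* was at -0.59 (SE 0.22) and *Mrpl12* at -0.53 (SE 0.19), and *Nr2c2+Mrps25* and the locus that joins *Mrpl48* to *Rab6a* were highest at 0.10 and 0.13. The 77 loci of the respiratory chain had a median of -0.34, with 72 below 0 and 16 lower at that level, from *Uqcrq* at -0.53 (SE 0.21) and *Ndufa12* at -0.52 (SE 0.19) to *Atp5g1* at 0.10 and a locus with *Atp5l* at 0.23. The elongation list of 8 loci holds *Tpt1* beside elongation factors. Its median was -0.36, with all below 0 and 2 lower at that level. *Eef1d* was at -0.39, *Tpt1* at -0.39, *Eef1a1+AK204572* at -0.15 and *Eef2*, the translocase of the ribosome, at -0.01.

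The 40 initiation factor loci had a median of -0.21, with 31 below 0, where 49.3% of all loci were. At an unadjusted p under 0.05, 5 were lower and 2 higher, where 9.49% of all loci were lower and 9.68% higher. *Eif4a1*, a helicase that unwinds the start of messenger RNAs, was at -0.49 (SE 0.14) and *Eif1* at -0.45 (SE 0.14), whereas the scaffold *Eif4g1* was at 0.24 (SE 0.16) and a locus with *Eif3j1* at 0.39 (SE 0.17). The 122 loci for ribosomal RNA synthesis and processing had a median of -0.17, with 105 below 0 and 23 lower at an unadjusted p under 0.05, from *Imp3* at -0.56 (SE 0.18) and *Mrto4* at -0.50 (SE 0.17) to a locus with *Nvl* at 0.23 and *Mdn1* at 0.51 (SE 0.27). Proteins that bind the ribosome but that the names do not match had a median of -0.23 over 10 loci, with *Naca* at -0.38 near the lower end and *Nacad* highest at 0.10. The 39 loci of TOR and growth regulators had a median of 0.11, which was -0.0017 with the length trend removed, from *Rhebl1* at -0.39 and *Eif4ebp1* at -0.34 to *Mxd4*, a repressor of Myc targets, at 0.65 (SE 0.20) and *Pdk1*, a pyruvate dehydrogenase kinase, at 0.76 (SE 0.32). At an unadjusted p under 0.05, 3 of these 39 were lower and 9 higher, and 2 of the 10 ribosome-bound loci were lower. edgeR and DESeq2 each called 0 loci of these lists over both batches, where edgeR called 0% of all loci and DESeq2 0.327% lower and 0.404% higher. Without siControl batch 1 replicate 1 the medians were -0.15 for the mitochondrial ribosome, -0.13 for the respiratory chain, -0.12 for ribosomal RNA synthesis and processing, -0.17 for elongation, -0.09 for initiation, -0.11 for the ribosome-bound loci and 0.08 for the TOR list. With each library's length trend removed they were -0.20 for the mitochondrial ribosome, -0.07 for the respiratory chain, -0.15 for ribosomal RNA synthesis and processing, -0.18 for elongation, -0.13 for initiation and -0.20 for the ribosome-bound loci.

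Between batches the lists parted. Beside -0.56 for the ribosomal proteins, the respiratory chain was at -0.47 with 34 of 77 loci called lower by edgeR and 0 higher, and the mitochondrial ribosome at -0.21 with 21 of 76 called lower and 3 higher. Ribosomal RNA synthesis and processing was at 0.28, with 2 called lower and 23 higher of 122. Of all loci tested, edgeR called 21.3% lower and 16.4% higher between the batches. Leaving out siControl batch 1 replicate 1 gave -0.32 for the ribosomal proteins, -0.21 for the respiratory chain, 0.04 for the mitochondrial ribosome, which turned its direction, and 0.34 for ribosomal RNA synthesis and processing. With the length trend removed, the ribosomal proteins were at -0.08, the respiratory chain at 0.02, the mitochondrial ribosome at 0.12 and ribosomal RNA synthesis and processing at 0.34. In batch 1 alone, removing the trend left ribosomal RNA synthesis and processing at -0.40, from -0.42, where it took the ribosomal proteins from -0.72 to -0.18. The lists differ in transcript length, and the difference between lists was not tested.

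**Figure D5:**
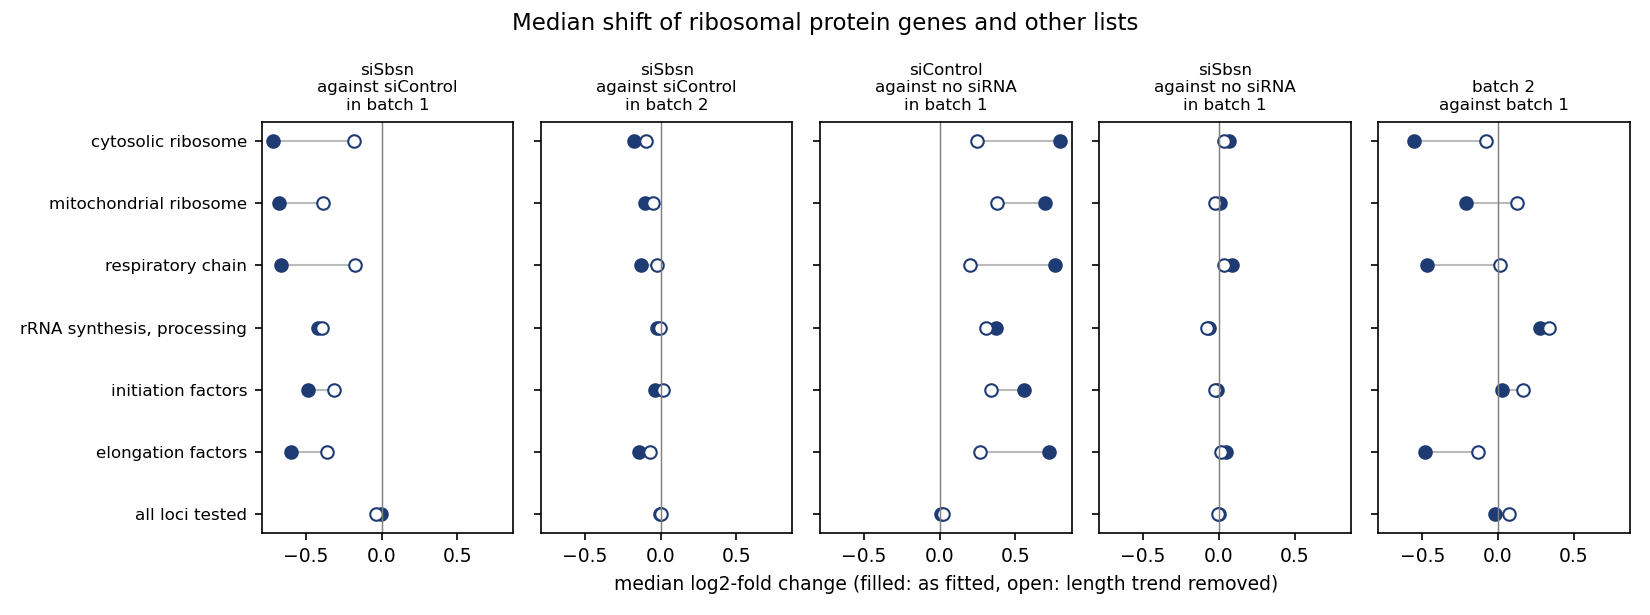
Median log2-fold change (horizontal axis) of the ribosomal protein loci, 5 other lists and all loci tested in 5 comparisons, as fitted (filled) and with each library's length trend removed (open). In batch 1 the ribosomal proteins go from -0.72 to -0.18 when the trend is removed, while ribosomal RNA synthesis and processing goes from -0.42 to -0.40.

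The promoters of the members were read from the RefSeq windows of GRCm38.p6, from 250 bases before to 50 after each start. Windows matched 65 member genes, with 77 windows, among 27025 genes. A run of at least 10 C or T that overlaps the 20 bases on either side of the start was present in 28 of 65 (43.1%), against 12.2% of all genes, and the median longest run near the start was 9 against 5. The letters CGGAAG, the core that ETS factors bind, were present on either strand in 42 of 65 (64.6%), against 18.8%. AAGATGG, part of the YY1 motif, was in 11 (16.9%, against 7.28%), the E-box CACGTG in 6 (9.23%, against 8.09%) and TATAAA in 8 (12.3%, against 15.7%), each on either strand. Letters found are a description and not a bound site.

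The median shift was alike with and without such a run of at least 10 C or T. Over both batches the 29 tested loci with this tract had a median of -0.37 and the 35 without had -0.34, and the 21 without a window had -0.42. Loci with shorter runs count as without, such as *Rps27* with a run of 9 across its start. The split therefore does not part messenger RNAs that begin with pyrimidines from others, and that question was not tested. The start regions of the 4 lowest and the 4 highest single-name members with a window are printed here, as 80 bases from 50 before to 30 after the start, 5′ to 3′ on the gene's strand. Capitals mark the longest run of C and T near the start. *Rpl35a* (chr16:33056432-33056511, plus strand), *Rps19* (chr7:24884863-24884942, plus), *Rps27* (chr3:90213619-90213698, minus) and *Rplp2* (chr7:141447601-141447680, plus) had log2-fold changes of -0.72, -0.69, -0.61 and -0.60. The whole window of *Rps19* lies inside its counted locus, which begins at base 24884635. The start printed for *Rps19* is therefore a downstream one and not the first of the gene. *Rpl39l* (chr16:10170178-10170257, plus), *Rpl32l* (chr10:20208389-20208468, plus), *Rps23* (chr13:90923072-90923151, plus) and *Rpl24* (chr16:55966225-55966304, plus) had -0.15, -0.12, -0.07 and -0.04.
Rpl35a: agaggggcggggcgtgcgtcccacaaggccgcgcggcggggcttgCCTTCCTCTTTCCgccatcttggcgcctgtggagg
Rps19: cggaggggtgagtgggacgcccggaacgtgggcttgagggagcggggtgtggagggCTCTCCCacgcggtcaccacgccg
Rps27: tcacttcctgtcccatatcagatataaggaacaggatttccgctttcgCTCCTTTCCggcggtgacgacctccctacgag
Rplp2: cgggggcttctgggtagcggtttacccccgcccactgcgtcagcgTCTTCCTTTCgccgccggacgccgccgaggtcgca
Rpl39l: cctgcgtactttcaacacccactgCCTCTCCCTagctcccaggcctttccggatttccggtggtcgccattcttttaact
Rpl32l: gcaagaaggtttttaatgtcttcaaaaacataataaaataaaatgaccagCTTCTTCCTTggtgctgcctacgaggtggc
Rps23: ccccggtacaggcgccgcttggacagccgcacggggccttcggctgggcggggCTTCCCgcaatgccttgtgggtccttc
Rpl24: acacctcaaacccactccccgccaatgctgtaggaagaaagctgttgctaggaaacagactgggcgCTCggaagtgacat
Runs of 7 to 13 bases lie across or just after the printed start of *Rpl35a*, *Rps19*, *Rps27* and *Rplp2*, which for *Rps19* is the downstream start. Of the 4 highest, *Rpl32l* has a run of 10 after its start, *Rpl39l* one of 9 that ends before it, *Rps23* one of 6 and *Rpl24* one of 3.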

How the data were processed

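RNA was extracted with an RNeasy kit and libraries were made with a Neoprep kit. The authors used STAR with its default settings to align reads to mm10 and counted those that aligned uniquely to each gene of the UCSC KnownGene annotation, with overlapping genes joined into 1 locus. The deposited table holds raw read counts, as whole numbers. The submitters' processing notes also name DESeq2. Whether strand was used is not given in the sources.

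The quasi-likelihood test was run in edgeR 4.0.16 (R 4.3.3) on loci that its low-count filter kept, with TMM normalization and batch and treatment in the model over the siControl and siSbsn libraries. Comparisons within a batch used the libraries of the groups compared. A locus was called at a log2-fold change over 0.5 in size and a Benjamini-Hochberg q-value under 0.05 over all loci tested. The SE is the size of the log2-fold change over the square root of F. CPM is the count times 1e6 over the TMM-scaled sum of counts of the loci kept, and log2 values of single libraries add 0.5. Alternatives were DESeq2 1.42.0, limma-voom (limma 3.58.1), other normalizations, no filter, no batch term, a replicate block, removal of each library's trend on transcript length, and leaving out each library. The fits were tested on simulated data. Starts are printed after adding 1, and lengths and copied windows come from GENCODE transcripts.

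Members named are the 6 lowest and 6 highest over both batches, those outside the members' median plus or minus 3 scaled median absolute deviations in any comparison, second copies with their main copies, the 5 highest and 5 lowest levels per kilobase, members of known special role, and the 4 with the smallest p for the interaction. Of each other list the 2 lowest and 2 highest loci are named. *Rpl37a*, *Rps24* and members listed by name beside a count were chosen after their values were seen. The members and lists were chosen with earlier results of these data known. Length of the authors' own gene models was not used here. Results for some loci that this rule names are not reported here.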

Additional observations from a re-analysis of the deposited data

How the results depend on the processing

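Of 515 values recomputed under alternatives, 27 turned sign and 21 moved, a median or level by more than the SD between libraries and a count by more than 1.5 times. No member was called over both batches under any of the alternatives run. The count of members lower at an unadjusted p under 0.05 over both batches was 34 (1220 of 12857 loci), and 16 with the length trend removed (1254 of 12857), 16 with that trend fitted on the other loci (chosen after seeing the data), 10 without a batch term (458 of 12857 loci), and 8 to 52 when single libraries were left out (8 without siSbsn batch 1 replicate 2, with 500 of 12924 loci, 14 without siControl batch 2 replicate 3, with 650 of 13006 loci, and 52 without siControl batch 1 replicate 2, with 1654 of 12974 loci). With a replicate block, in which numbers 1 and 2 of batch 1 paired the libraries, it was 52 (1877 of 12857 loci) and the median was -0.35. The block called 30 members lower in batch 1 (581 of 12899 loci) and 25 higher for siControl against no siRNA (288 of 12959 loci). Deviations of libraries with the same number correlated at 0.379 to 0.805, but only 2 numbers are shared, so the libraries were not treated as paired. Members' medians moved with length removed, by all loci or by the other loci, to -0.18 and -0.18 in batch 1, 0.13 and 0.13 for the interaction, 0.24 and 0.25 for siControl against no siRNA, and -0.0783 and -0.0632 for batch 2 against batch 1. Leaving out single libraries gave -0.45 to -0.20 over both batches, -1.12 to -0.20 in batch 1, 0.00502 to 0.82 for the interaction, 0.26 to 1.13 for siControl against no siRNA, -0.24 to -0.05 in batch 2, and -0.05 to 0.20 for siSbsn against no siRNA. With siControl batch 1 replicate 2 left out, 57 members were called lower in batch 1 (1699 of 13321 loci), 55 higher for the interaction (1778 of 12974) and 59 higher for siControl against no siRNA (1626 of 13378), the lone siControl library then being assumed to vary like the other group.

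Some members turned sign over both batches. With the length trend removed *Rpl11* was at 0.15, *Rpl24* at 0.27, *Rpl32l* at 0.27, *Rpl39l* at 0.14 and *Rps23* at 0.22. In batch 2 alone *Clpb+Rpl31* was at 0.0054, *Rpl11* at 0.11, *Rpl24* at 0.0687, *Rpl32l* at 0.32, *Rps23* at 0.14, *Rps29* at 0.0734, *Rpsa* at 0.0341 and *Snora33+Snord100+Rps12* at 0.0140. With single libraries left out, *Clpb+Rpl31* ran from -0.14 to 0.0187, *Fam69a+Rpl5* from -0.0725 to 0.13, *Rpl11* from -0.24 to 0.0887, *Rpl24* from -0.14 to 0.0705, *Rpl32l* from -0.25 to 0.29, *Rpl39l* from -0.29 to 0.0161, *Rps23* from -0.19 to 0.11 and *Rpsa* from -0.40 to 0.0134. The cause was not tested. Per kilobase of the coding transcript the median level was 33.8 CPM in place of 20.2. Uniqueness in the genome was not run, and windows shared between transcripts were used in its place. Members at under 3 CPM rest on few counts.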
